A study of Mus musculus with 4 samples.

Results

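The microRNA miR-21 was followed on 4 microarrays of mouse mammary tumours. It was chosen by name, as the probe whose ID is mmu-miR-21, so it is 1 of the 700 mouse microRNA probes on each array, with 5 spots per array. The study's title is about miR-21 in the stress response and in the growth and spread of breast cancer, and its design text names primary and metastatic tumours after sham or 10 Gy radiation. The tumours grew from 4T1, a carcinoma line of the mouse mammary gland that spreads to distant organs. Per the labels, 20 female mice (strain written as Balb/s) received 50000 of these cells orthotopically.

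There was 1 array for each of 4 groups. The group called primary sham was the primary tumour after sham radiation, given when the tumour had reached 1 cm3, and the group called primary 10 Gy was the primary tumour after a dose of 10 Gy at that size, with 10 mice in each arm. Surgery then took out the primary tumour, and metastases grew to the end point. The groups called metastases sham and metastases 10 Gy were the metastases of these mice. The dose was thus given to the primary tumour, and the metastases 10 Gy group is named for what the primary tumour of those mice had received. All groups shared the injected cell line, the host strain and the sex, and both metastases groups shared the surgery. The organ of the metastases, the time between dose and surgery, and whether an array's RNA was that of 1 mouse or a pool are not stated in the labels. For each array, 2 µg of total RNA was tailed with poly(A), joined to a tag and stained with Cy3. With 1 array per group, no difference between arrays has a replicate check, and the number of arrays limits the precision.

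miR-21 is a short RNA cut from a hairpin by Drosha and Dicer. Its guide strand is loaded into Argonaute and directs the repression of messenger RNAs that pair with its seed, the bases 2 to 8. Known targets are Pdcd4, an inhibitor of translation and of AP-1, Tpm1, an actin-binding tropomyosin, and Reck, an inhibitor of matrix proteases. STAT3 and AP-1 raise its transcription, SMAD proteins have been described to promote its processing in human cells, and it is known as an abundant microRNA of carcinoma cells, fibroblasts and macrophages. In bulk tissue, fewer cells of a type and less RNA per cell cannot be told apart.

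The target of the probe and the strand opposite to it in the hairpin are shown first, since every value below rests on the first of them. Capitals mark the seed.
miR-21: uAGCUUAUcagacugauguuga
miR-21*: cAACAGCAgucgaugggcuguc
The gene, Mir21a, lies at chr11:86584067-86584158 on the minus strand of GRCm38.p6, and the sequences and positions here come from RefSeq tables of that assembly. The mature strands lie at chr11:86584120-86584141 and chr11:86584082-86584103. Mir21a falls within the span of Vmp1 (chr11:86583858-86683836, minus strand), a gene of autophagosome formation, 209 bases from its 3′ end. The tables used here hold no exons, so the place of the hairpin within the Vmp1 transcript is not given.

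In the 92-base hairpin below, capitals mark the guide strand at positions 18 to 39 and the passenger strand, miR-21*, at positions 56 to 77.
hairpin: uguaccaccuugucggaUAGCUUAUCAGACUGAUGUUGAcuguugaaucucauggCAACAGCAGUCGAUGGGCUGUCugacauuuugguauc

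The mean intensity of the 5 miR-21 spots, in scanner units, was 37828 ± 1191 (SD over spots) in the sham primary tumour, 43838 ± 461 in the sham metastases, 35860 ± 1991 in the 10 Gy primary tumour and 29457 ± 3258 in the 10 Gy metastases. This SD covers only the scatter of spots within a chip. In the sham primary tumour the 5 spots read 39202, 36425, 36742, 38322 and 38452, and in the sham metastases they read 43659, 43687, 43484, 43711 and 44647. On the primary 10 Gy array they read 38668, 34647, 33387, 36308 and 36290, and on the metastases 10 Gy array 32239, 28445, 24746, 32820 and 29037. Before any scaling between arrays, the metastases sham spots lay above all others, the metastases 10 Gy spots lay below all others, and the spots of both primary tumour arrays overlapped.

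**Figure D1:**
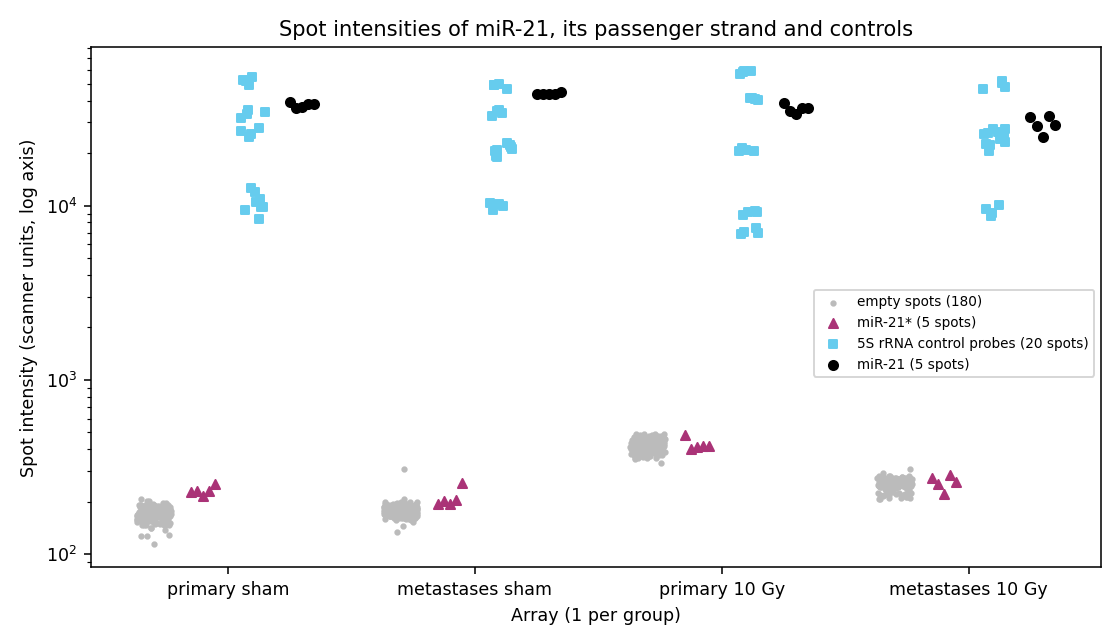
Intensity of single spots (log axis, scanner units) on each of the 4 arrays, with empty spots as grey points, miR-21* as triangles, the 5S ribosomal RNA control probes as squares and miR-21 as black circles. miR-21 lay far above the empty spots and in the range of the 5S probes on every array, while miR-21* lay near the empty spots.

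Each chip held 180 empty spots, whose median gives the background. It was 171.5 in the sham primary tumour, 177.2 in the sham metastases, 416.9 in the 10 Gy primary tumour and 252.4 in the 10 Gy metastases. Above that median, miR-21 gave a signal of 37657, 43661, 35443 and 29205 in the same order. miR-21 was thus 220.6 times as bright as the empty spots in the sham primary tumour, 247.4 times in the sham metastases, 86.0 times in the 10 Gy primary tumour and 116.7 times in the 10 Gy metastases. The lowest multiple fell on the primary 10 Gy array, which also had the highest background, and there the miR-21 spots overlapped those of the primary sham array.

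Detection on an array required 3 or more of the 5 spots of a probe to lie above the empty spots' 95th percentile there. By this rule 337, 459, 186 and 339 of the 700 probes were detected in the sham primary tumour, the sham metastases, the 10 Gy primary tumour and the 10 Gy metastases, 180 of them on all 4 arrays. All 5 miR-21 spots passed on every array. miR-21 made up 3.40% of the summed signal of detected probes in the sham primary tumour, 3.88% in the sham metastases, 6.39% in the 10 Gy primary tumour and 4.35% in the 10 Gy metastases. The summed signal was lowest on the primary 10 Gy array, at 554862, against 1108070 on the primary sham array, so the highest share fell on the array with the fewest detected probes. This share depends on how brightly every other probe binds, and it is not a share of molecules.

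The brightest spot of each array belonged to the control probe 5S-b5, and the brightest miR-21 spot reached 71.8%, 89.6%, 65.4% and 63.7% of it in the same order. No spots piled up at an upper limit on any array. The 5 spots of a probe sat in the same places on each chip, and at some places other probes deviated in the same direction as miR-21. On the metastases 10 Gy array the third miR-21 spot was at -16.1% from the miR-21 mean, and the median of 10 other bright microRNA probes at that place was -13.9%, with 6 of the 10 below their own mean. On the primary 10 Gy array the first miR-21 spot was at 7.92% from its mean and the 10 other probes at 14.3%. At other places the signs were opposite. The second spot on the metastases 10 Gy array was at -3.47% for miR-21 and 5.13% for the 10 probes. The fourth on the primary 10 Gy array was at 1.26% and -4.54%.

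By mean signal, miR-21 ranked 7 of 700 in the sham primary tumour, 1 in the sham metastases, 3 in the irradiated primary tumour and 2 in the metastases of irradiated mice. Taken spot position by spot position, the rank ran from 6 to 7 in the sham primary tumour, stayed at 1 in the sham metastases, and ran from 2 to 3 in the 10 Gy primary tumour and from 1 to 3 in the 10 Gy metastases. The gaps to the neighbours differed in size. On the primary sham array miR-762 was 0.80% brighter than miR-21 and miR-2134 was 8.87% dimmer. On the metastases sham array no probe was brighter, and the next, miR-709, was 13.9% dimmer. On the primary 10 Gy array miR-2142 was 1.23% brighter and miR-125b-5p 38.5% dimmer, and on the metastases 10 Gy array miR-2142 was 6.29% brighter and miR-709 9.60% dimmer. The gaps to miR-762, to miR-2142 and, on the metastases 10 Gy array, to miR-709 were below the SD of the miR-21 spots on their arrays, so the order of these neighbours is not set. miR-21, miR-2142 and miR-709 were the only probes among the 7 brightest on all 4 arrays. The targets of miR-2142 and miR-709 matched no mature microRNA in the RefSeq tables used here.

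**Figure D2:**
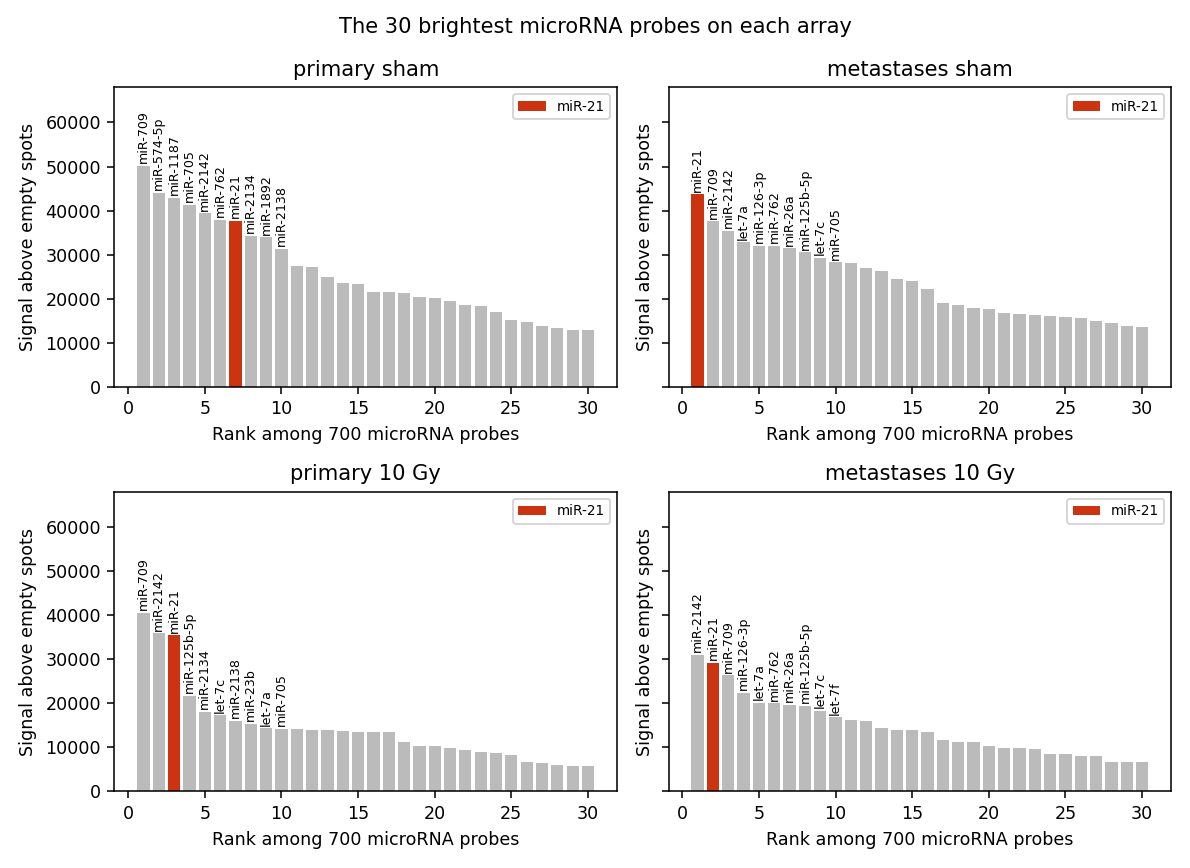
Signal above the empty spots (linear axis) of the 30 brightest microRNA probes on each array, in order of rank, with miR-21 in red and the 10 brightest named. miR-21 held rank 7 in the sham primary tumour, 1 in the sham metastases, 3 in the 10 Gy primary tumour and 2 in the 10 Gy metastases.

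The 10 other microRNAs with the best mean rank served as a panel of bright probes. Those whose ratio to miR-21 is described below and that RefSeq lists are shown here to let their seeds be set against that of miR-21, with capitals as above.
miR-125b-5p: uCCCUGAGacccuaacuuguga
let-7a: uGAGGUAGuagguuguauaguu
let-7b: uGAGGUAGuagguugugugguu
let-7c: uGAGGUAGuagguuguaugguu
let-7d: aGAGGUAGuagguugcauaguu
miR-26a: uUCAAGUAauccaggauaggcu
miR-705: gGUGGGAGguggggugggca
miR-762: gGGGCUGGggccgggacagagc
The 4 let-7 members, which repress Ras and other growth genes, have a common seed, and no probe of the panel has the seed of miR-21. The miR-21 target is 36.4% G and C, and 9.86% of the 700 probe targets have a lower share, against a median of 47.7%. Of the panel, miR-762 (81.8%), miR-705 (75%) and miR-709 (68.4%) were above 60%. Probes bind with unequal strength, so a ratio of their brightness is no ratio of molecules, and only its difference between arrays is read here. A ratio within an array is free of any scaling between arrays, which is why it is given before the scaled levels.

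The signal of miR-21 over that of miR-125b-5p, the mammalian relative of the worm lin-4 microRNA, was 1.59 in the sham primary tumour, 1.43 in the sham metastases, 1.64 in the 10 Gy primary tumour and 1.50 in the 10 Gy metastases. The highest of these ratios was 1.15 times the lowest, the smallest range of the panel. Over let-7a the ratio was 1.38, 1.33, 2.48 and 1.46 in the same order, and over let-7c it was 1.51, 1.49, 2.05 and 1.60. For these let-7 members the primary 10 Gy array stood above the other 3. The spread of the log2 ratio on that array was 0.26 for let-7a and 0.23 for let-7c. This spread combines the spot SDs of both probes as if their spots were independent. The same array stood highest for let-7b (1.61, 1.66, 2.56 and 1.83) and for let-7d (1.87, 1.62, 3.62 and 1.79). The 4 let-7 targets share most of their sequence, so these ratios are not separate measurements.

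Over miR-26a, a microRNA that represses Ezh2, the ratio was 2.73 and 2.64 on the primary sham and primary 10 Gy arrays against 1.39 and 1.48 on the metastases sham and metastases 10 Gy arrays. This split by tumour site, not by dose, was also seen with the microRNAs fixed as references. The ratio to miR-16, a repressor of cyclins and Bcl2, was 5.22, 2.48, 7.08 and 2.94, that to miR-103 was 34.7, 18.0, 26.8 and 19.3, and that to miR-191 was 12.1, 7.21, 12.4 and 7.12. For each of these 4 microRNAs both metastases arrays were below both primary tumour arrays. The same order held for miR-125b-5p and let-7d, where the closest primary and metastases values were 1.59 against 1.50 and 1.87 against 1.79. Among the control probes described below, it held for 5S-b1, a2-PUC2PM-20B and a3-PUC2PM-20B.

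The panel's 4 remaining probes split in another way. Over miR-762 the ratio was 0.99, 1.36, 2.60 and 1.46, and over miR-705 it was 0.91, 1.55, 2.50 and 2.19, with the primary sham array lowest for both. Over miR-709 it was 0.75, 1.16, 0.87 and 1.11, and over miR-2142 it was 0.96, 1.23, 0.99 and 0.94. miR-21 was dimmer than these 4 on the primary sham array and brighter than all 4 on the metastases sham array.

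**Figure D3:**
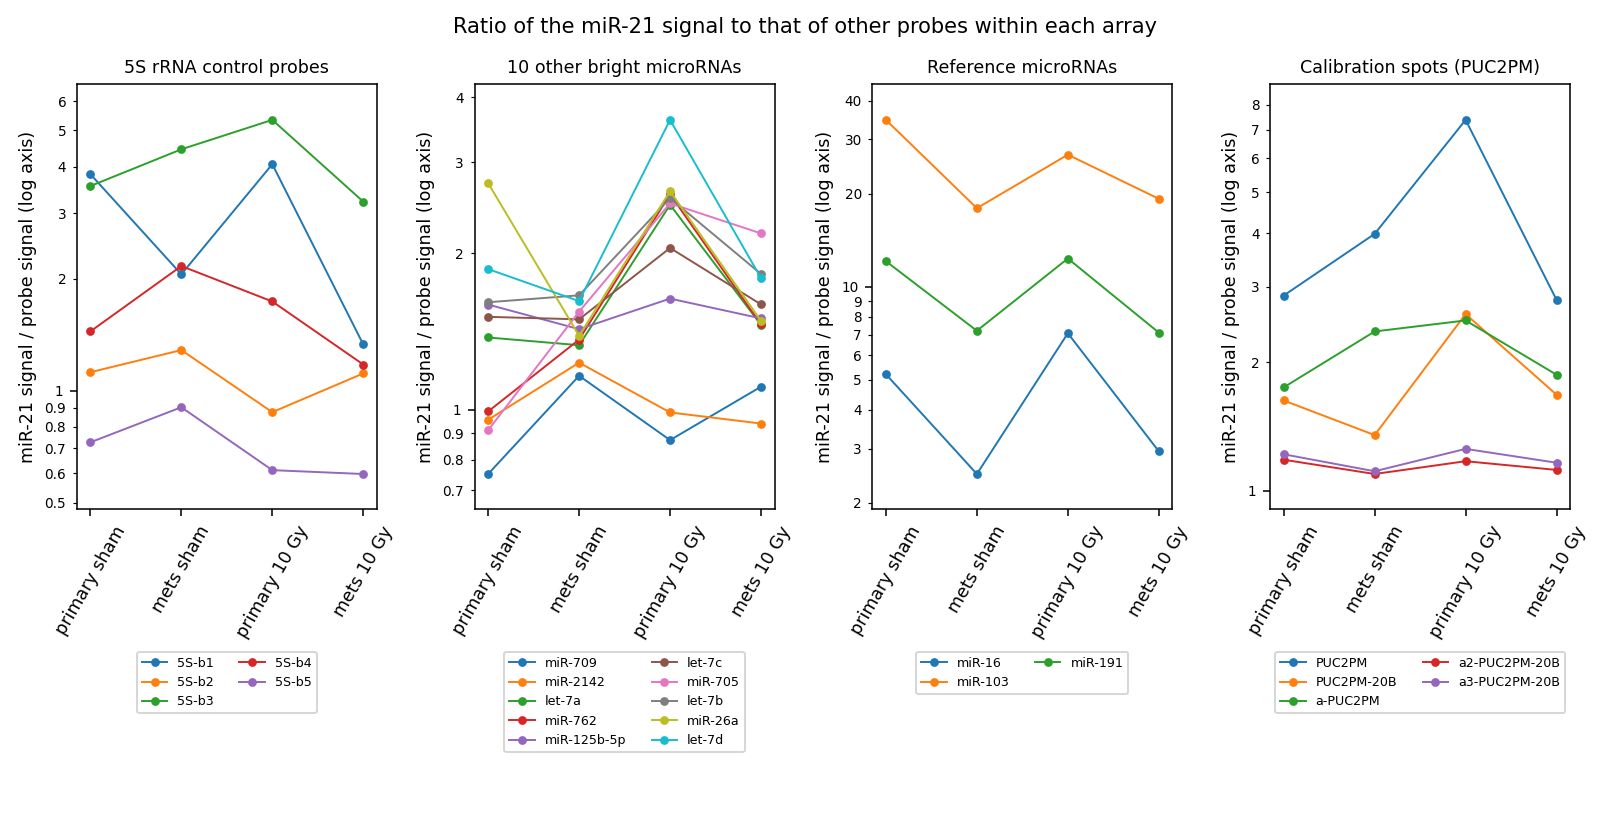
Signal of miR-21 divided by that of each other probe within an array (log axes, "mets" for metastases), for the 5S control probes, the 10 other bright microRNAs, the 3 reference microRNAs and 5 calibration probes; lines join the values of a probe across the 4 arrays, which have no order. The 5S-b1 ratio spanned 1.33 to 4.06, the miR-125b-5p ratio only 1.43 to 1.64.

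Each chip also carried 5 probes for 5S ribosomal RNA, the small RNA of the large ribosomal subunit, with 4 spots each, called 5S-b1 to 5S-b5. The signal of miR-21 over that of 5S-b1 was 3.82 in the sham primary tumour, 2.05 in the sham metastases, 4.06 in the 10 Gy primary tumour and 1.33 in the 10 Gy metastases. Over 5S-b2 the ratio was 1.12, 1.29, 0.88 and 1.11, over 5S-b3 it was 3.55, 4.45, 5.34 and 3.22, over 5S-b4 it was 1.44, 2.16, 1.74 and 1.18, and over 5S-b5 it was 0.73, 0.90, 0.61 and 0.60. The 5 probes for the same RNA did not keep their own ratios from array to array. The signal of 5S-b1 was 9865, 21254, 8733 and 21938, higher on both metastases arrays, while that of 5S-b2 was 33587, 33957, 40472 and 26245. A ratio of miR-21 to 5S RNA therefore depended on the probe chosen.

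For the comparison of the irradiated with the sham primary tumour, the ratio rose over 3 of the 5 5S probes and fell over the other 2, with log2 differences from -0.36 to 0.59. It rose over 9 of the 10 bright microRNAs (median 0.55, from -0.052 for miR-26a to 1.45 for miR-705) and over 2 of the 3 reference microRNAs. For the metastases of irradiated against sham mice, it fell over all 5 5S probes, by 0.21 to 0.88 on the log2 scale, and rose over 8 of the 10 bright microRNAs (median 0.096). For metastases against primary tumour in the sham arm, it rose over 4 of 5 5S probes, over 5 of 10 bright microRNAs, and over 0 of 3 reference microRNAs (-1.07 to -0.75). For metastases against primary tumour in the 10 Gy arm, it fell over 21 of the 23 probes examined, the exceptions being 5S-b2 (0.35) and miR-709 (0.34). The 23 are a chosen set: these 3 kinds of probe and the calibration probes described next. Among all 181 probes detected on both arrays, the miR-21 difference without normalization lay at percentile 28.2. These counts describe 2 arrays at a time, and the 4 comparisons share arrays.

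The probes called PUC2PM, calibration spots on the chip whose target amount is not given in the sources used here, formed another yardstick. Over a2-PUC2PM-20B the ratio was 1.18, 1.09, 1.17 and 1.12, and over a3-PUC2PM-20B it was 1.22, 1.11, 1.25 and 1.16, so the highest was 1.08 and 1.13 times the lowest. These were the smallest ranges among the 23 probes. Over PUC2PM it was 2.86, 3.99, 7.37 and 2.80, a span of 2.64 times, so the calibration probes were not alike.

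For levels across arrays, background-corrected values of the 700 microRNA probes were brought to a common distribution by quantile normalization. The normalized log2 level of miR-21 was 14.60 in the sham primary tumour, 15.31 in the sham metastases, 15.08 in the 10 Gy primary tumour and 15.15 in the 10 Gy metastases. Quantile normalization gives every array the same set of values, so this level is set by rank alone: ranks 7, 1, 3 and 2. The difference between the irradiated and the sham primary tumour was 0.48 ± 0.04 on the log2 scale (1.40-fold), where the value after ± is the SD of the 5 differences between unscaled spots at matching places on both chips. This SD is the same under every scaling, and it is not the error of the normalized difference, to which the scaling adds an unknown part. It was -0.17 ± 0.16 between the metastases of irradiated and sham mice, 0.72 ± 0.04 (1.65-fold) between metastases and primary tumour in the sham arm, and 0.07 ± 0.10 in the 10 Gy arm. Without replicate arrays these differences have no test.

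miR-21 was past 2-fold in 0 of these 4 comparisons. Among probes detected on at least 1 array of each pair, the share at least 2-fold higher in the irradiated primary tumour was 14.7% (50 of 339) and the share at least 2-fold lower was 13.0% (44). For metastases of irradiated against sham mice these shares were 2.29% (11 of 481) and 2.49% (12). For metastases against primary tumour they were 11.8% (56 of 473) and 10.6% (50) in the sham arm and 10.2% (35 of 344) and 11.0% (38) in the 10 Gy arm. Among probes detected on both arrays of a pair, the miR-21 difference lay at percentile 55.4 of 184 for the irradiated primary tumour, 32.2 of 317 for the metastases of irradiated mice, 78.0 of 323 for metastases in the sham arm and 65.7 of 181 in the 10 Gy arm. The medians of all probes tested were -0.06, -0.02, 0.06 and 0.00 in the same order.

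The split of higher and lower probes depended on the scaling. Without normalization it was 7 higher and 89 lower in the irradiated primary tumour, with the 75th percentile of each array as scale 82 and 25, and with cyclic loess 28 and 58. For metastases of irradiated mice it was 7 and 71 without normalization and 41 and 10 with the 75th percentile. For metastases in the sham arm cyclic loess gave 52 and 74, and in the 10 Gy arm no normalization gave 49 and 15 and the 75th percentile 30 and 77. The median of all probes tested was -0.29, -0.20, 0.09 and 0.08 without normalization and 1.13, 0.59, -0.24 and -0.88 with the 75th percentile, for the 4 comparisons in the order above. Relative to that median, a scaling by 1 factor per array cancels out, and miR-21 was then at 0.20, -0.38, 0.12 and -0.36. Its percentile among probes detected on both arrays of a pair was likewise the same under every such scaling, at 65.8, 43.2, 57.3 and 28.2, and it was 71.7, 66.2, 58.5 and 47.0 with cyclic loess.

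Each difference of miR-21 changed sign with the scaling. Over the 7 scalings it ran from -0.088 to 1.33 for the irradiated primary tumour, from -0.59 to 0.21 for the metastases of irradiated mice, from -0.89 to 0.72 for metastases in the sham arm and from -1.24 to 0.07 for metastases in the 10 Gy arm. The highest value of the first came from the 75th percentile and the lowest of the third from the reference microRNAs.

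**Figure D4:**
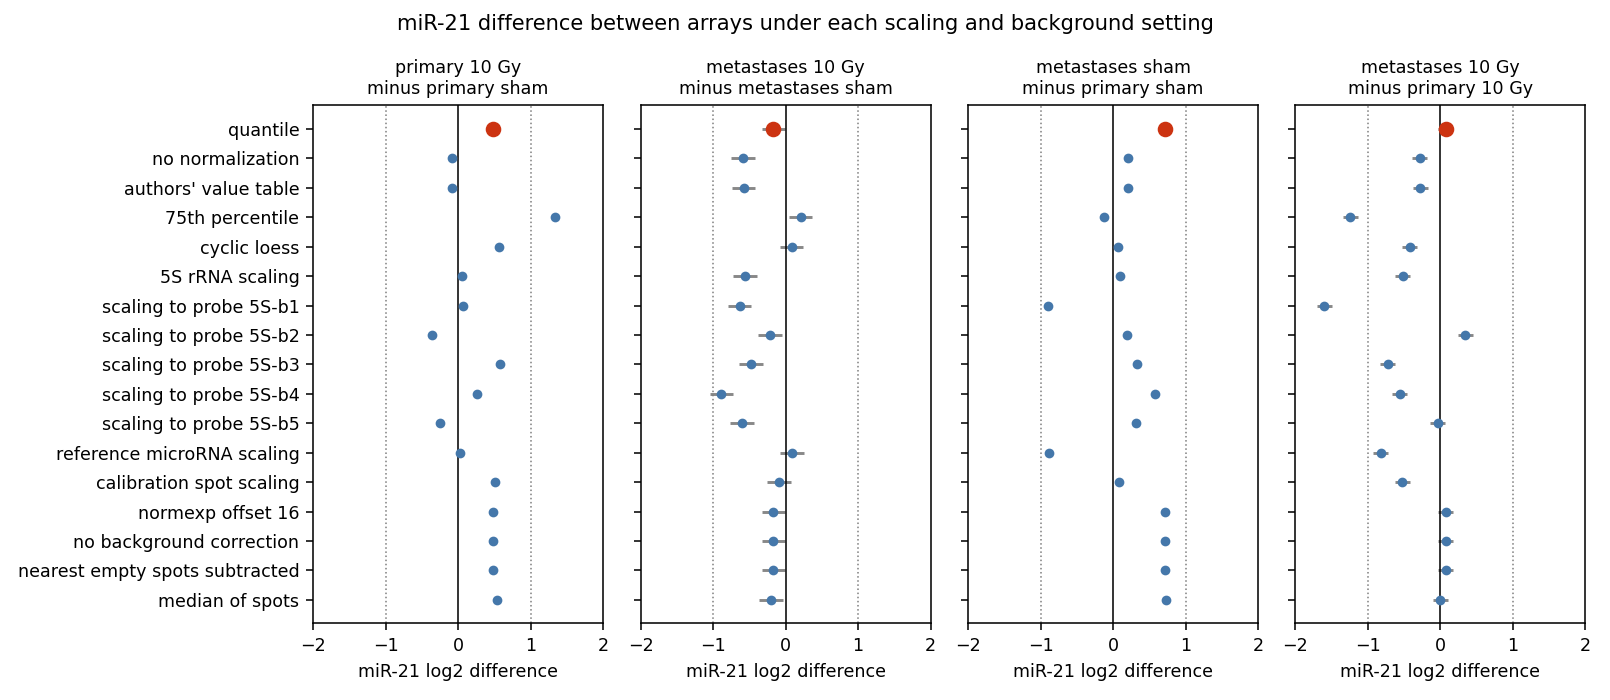
miR-21 log2 difference for each of the 4 comparisons (x axis, log2 units) under each scaling and background setting (y axis), with the quantile value in red, error bars of 1 SD over 5 unscaled spot pairs and dotted lines at 2-fold. The quantile values of 0.48, -0.17, 0.72 and 0.07 sat among settings on both sides of 0.

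An additive model with tumour site and radiation as terms was fitted with limma over 374 probes detected on at least 2 arrays. It has 1 residual degree of freedom. Its error combines a probe's disagreement between the arms or sites with a variance pooled over all probes in the fit. It is not an animal-to-animal spread. Its radiation term pools the irradiated primary tumour with metastases of mice whose primary tumour had received the dose. For miR-21 the site term, metastases minus primary tumour, was 0.39 (SE 0.28, adjusted p = 0.483, limma with Benjamini-Hochberg adjustment), and the radiation term, 10 Gy minus sham, was 0.16 (SE 0.28, adjusted p = 0.843). No probe (0.0%, 0 of 374) passed an adjusted p of 0.05 for either term, and 83 and 22 probes had an unadjusted p under 0.05. The count of 0 held for quantile normalization, no normalization, cyclic loess, the reference microRNAs and a fit of all probes, but 42 probes passed for site and 7 for radiation with the 75th percentile, 34 and 8 with the 5S probes, and 33 and 3 with the calibration spots. miR-21 was not among them under any of these. With the 75th percentile the error rested wholly on the pooled variance. Over the scalings and with all probes, the adjusted p of miR-21 ran from 0.136 to 0.931 for site and from 0.397 to 0.951 for radiation.

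Without normalization, the highest miR-21 signal of the 4 arrays was 1.49 times the lowest. Of the other probes detected on all 4 arrays, 3 had a smaller span, namely miR-2142, miR-674 and miR-210, and the median over the 180 probes was 4.34 times. On log2 levels after background correction, 26 of these probes had a smaller range than miR-21 (0.72) under quantile normalization, 13 with no normalization, 55 with the 75th percentile, 16 with cyclic loess, 9 with the 5S probes, 43 with the reference microRNAs and 12 with the calibration spots. The range itself depended on the scaling, from 0.53 with the calibration spots to 0.91 with the reference microRNAs and 1.45 with the 75th percentile.

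Among the other 179 probes detected on all 4 arrays, likeness to miR-21 was measured as the root mean square difference of centred log2 signals over the 4 arrays, a measure that does not depend on a scaling by 1 factor per array. The 5 closest were miR-130b (0.054), miR-125b-5p (0.076), miR-674* (0.081), miR-99b (0.087) and miR-574-3p (0.095), against a median of 0.58 over all 179 and 27 within 0.25. The arrays are few and shared by every probe, so the order is a description of these chips. The signal of miR-99b was 3115, 4102, 3387 and 2456, highest on the metastases sham array and lowest on the metastases 10 Gy array, as for miR-21. That of miR-130b was 420.8, 456.9, 337.0 and 282.0, close enough to the background for its treatment to matter: without background correction miR-130b fell to place 12 and miR-574-3p to place 41, while miR-125b-5p took place 1 and miR-99b place 5. miR-125b-5p and miR-99b were thus the 2 of the 5 that stayed among the 5 closest without background correction. The sequences of the closest probes not yet shown have other seeds than miR-21.
miR-130b: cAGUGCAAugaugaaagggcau
miR-99b: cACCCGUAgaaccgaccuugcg

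**Figure D5:**
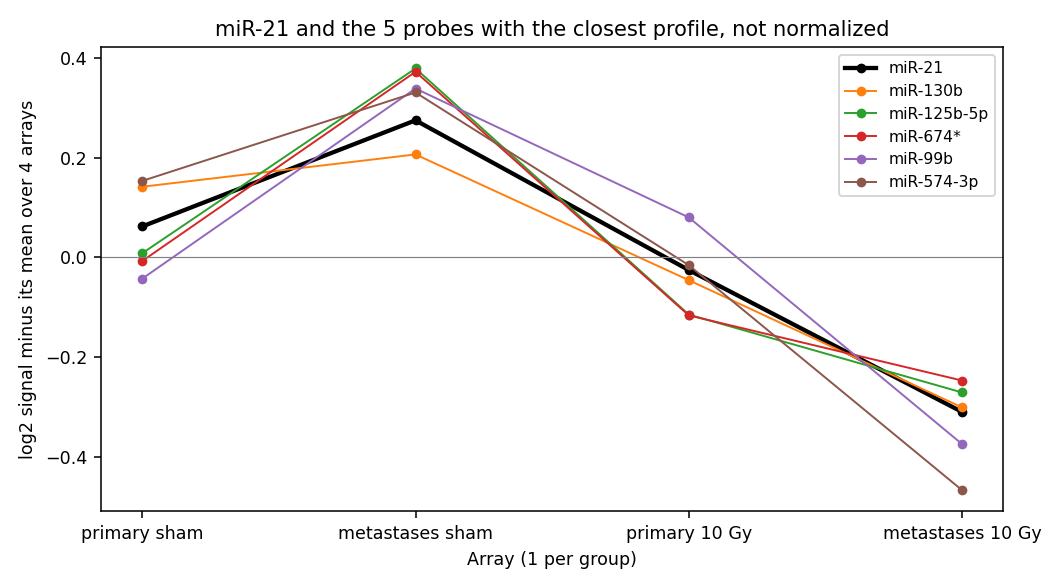
Log2 signal minus its mean over the 4 arrays (y axis), by array, for miR-21 (thick black line) and the 5 probes with the closest profile, without normalization between arrays. All 6 were highest on the metastases sham array and lowest on the metastases 10 Gy array.

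The passenger strand miR-21*, whose sequence is shown above, lay close to the background. Its signal above the empty spots was 60.60 ± 13.7 (SD over 5 spots) in the sham primary tumour, 33.05 ± 26.8 in the sham metastases, 8.80 ± 32.3 in the 10 Gy primary tumour and 5.54 ± 23.6 in the 10 Gy metastases. It was detected on the first 2 arrays, with 5 and 3 of 5 spots above the 95th percentile of empty spots, and not on the other 2, with 1 of 5 spots each. On the metastases sham array 1 spot stood apart, at an intensity of 257.7, with the others from 194.3 to 203.7. In the 10 Gy groups miR-21* thus has only an upper bound, and no fold change is given for it.

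Other probes with similar targets could share signal with miR-21. The only other probe with its seed, AGCUUAU, was that of miR-590-5p, which was not detected on any array, with signals from -5.88 to 8.98. The longest run of bases shared with any other target was 9, with miR-468 and miR-541. miR-541 was detected only on the metastases sham array, at 30.27, and miR-468 gave 5402, 163.1, 201.5 and 164.1 in the order used above. miR-468 was thus highest in the sham primary tumour, where miR-21 was not, and its share in the miR-21 signal was not tested. RefSeq also lists a mouse paralog, miR-21b at chr3:29636768-29636790 on the plus strand, which has no probe of its own on the array.
miR-21b: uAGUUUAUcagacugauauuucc
Counted from the 5′ end of miR-21, with the miR-21 base first, the differences over its 22 bases are C4U, G18A, G21U and A22C, 1 of them in the seed. How far miR-21b binds the miR-21 probe was not tested.

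Of the microRNAs linked to NF-kB and STAT3, factors of the inflammatory response of which STAT3 also raises miR-21 transcription, all 7 were detected. In the irradiated primary tumour 2 of the 7 were at least 2-fold higher, miR-181b and miR-222, beside 14.7% of all probes tested, and the list's median was 0.22 against -0.06 over all probes tested. Without normalization miR-181b was at 0.04 and miR-222 at 0.17, short of 2-fold. In metastases of irradiated mice 0 of the 7 were past 2-fold, beside only 2.29% higher and 2.49% lower of all probes tested (median -0.32 against -0.02). In metastases of the sham arm miR-146a and miR-146b, which damp NF-kB signalling, were at least 2-fold higher (beside 11.8% of all probes, median 0.47 against 0.06), and in the 10 Gy arm both were higher and miR-222 lower (beside 10.2% and 11.0% of all probes, median -0.21 against 0.00). Without normalization, in the 10 Gy arm, miR-146a and miR-146b were at 2.58 and 2.34, and miR-222 was at only -0.36. The signal of miR-146b was 1244, 6248, 587.9 and 3423, higher on both metastases arrays, and that of miR-155, a microRNA of activated leukocytes, was 886.6, 2083, 310.0 and 652.9. Under scalings by 1 factor per array, which shift all probes alike, 2, 0, 7 and 6 of the 7 had a more positive log2 difference than miR-21 in the 4 comparisons in this order. Over the 7 scalings the median of the list ran from -0.56 to 0.85, from -0.85 to -0.06, from 0.04 to 1.14 and from -0.60 to 0.36.

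Of 21 microRNAs described as oncogenic in mammary carcinoma, 9 of 19 detected were at least 2-fold higher in the irradiated primary tumour and 0 lower, beside 14.7% and 13.0% of all probes tested (median 0.87 against -0.06). All 19 were detected on both primary tumour arrays, but only 184 of the 339 probes tested were. The 339 thus hold probes detected on 1 array only, which the list lacks. Among those 184 the miR-21 difference of 0.48 lay at percentile 55.4. Without normalization 7 of all 339 probes were higher and 89 lower in that comparison, and the detected members ran from -1.59 (miR-10b) to 0.60 (miR-17). The 9 were miR-222, miR-17, miR-20a, miR-18a, miR-106b, miR-93, miR-103, miR-107 and miR-191, and the direction of the list depended on the scaling, since its median ran from -0.24 without normalization to 1.18 with the 75th percentile. The signal of miR-17, a promoter of proliferation, was 1503, 4746, 2312 and 2475, and that of miR-27a was 2808.5, 10457, 1305 and 5234. In metastases of irradiated mice 0 of 20 were past 2-fold, beside 2.29% higher and 2.49% lower of all probes. The median was -0.16 against -0.02, and from -0.87 to -0.07 over the scalings. In metastases of the sham arm 4 of 20 were higher, miR-27a, miR-17, miR-18a and miR-92a, and 0 lower (beside 11.8% and 10.6% of all probes, median 0.43 against 0.06, from -0.13 to 0.97). In the 10 Gy arm miR-27a was higher, and miR-222, miR-182 and miR-183 were lower (1 and 3 of 19, beside 10.2% and 11.0% of all probes, median -0.52 against 0.00, from -0.57 to 0.39). Without normalization these were at 1.91, -0.36, 0.04 and -0.15 in the order named. Under scalings by 1 factor per array, 8 of 19, 5 of 20, 15 of 20 and 18 of 19 members had a more positive difference than miR-21 in the 4 comparisons.

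Of 9 microRNAs linked to DNA damage and p53, 5 were detected in the comparison of the primary tumours, and 2 of these, miR-145 and miR-107, were at least 2-fold higher after 10 Gy (beside 14.7% of all probes tested, median 0.94 against -0.06). Without normalization miR-145 was at 0.53 and miR-107 at 0.07, short of 2-fold. The signal of miR-34a, a direct target of p53, was 31.8, 373, 77.6 and 270 in the order used above. In metastases of irradiated mice 0 of 8 were past 2-fold (beside 2.29% higher and 2.49% lower of all probes, median -0.01 against -0.02). In metastases of the sham arm miR-34a and miR-145 of 8 were higher (beside 11.8%, median 0.73 against 0.06). In the 10 Gy arm miR-145 of 7 was higher (beside 10.2%, median 0.73 against 0.00). Over the scalings the medians ran from 0.07 to 1.49, from -0.44 to 0.36, from -0.00 to 1.10 and from -0.37 to 0.73. Under scalings by 1 factor per array, all 5 detected members had a more positive difference than miR-21 in the primary tumour. For miR-192 and miR-194 the gap was far within the spot scatter: -0.084 and -0.077 without normalization, against -0.088 for miR-21. Their SDs over spot pairs were 0.77 and 0.58, and neither was detected on the primary 10 Gy array. The order did not hold under quantile normalization, where the lowest member was at -0.24 and miR-21 at 0.48.

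Of 5 microRNAs whose hairpins are described, like that of miR-21, as bound by SMAD proteins, 3 were detected. Of the primary tumour arrays, miR-199a-5p and miR-421 were detected only on the sham array, with signals of 22.8 and 28.4 at 10 Gy. The list's median in the irradiated primary tumour was the value of miR-421. miR-199a-3p was at least 2-fold higher in the irradiated primary tumour (1 of 3, beside 14.7% of all probes tested, median -0.00 against -0.06) and in metastases of the sham arm (1 of 3, beside 11.8%, median 0.61 against 0.06). Its signal was 450.2, 3869, 421.4 and 1845, lower by a little in the irradiated primary tumour before normalization. In the other 2 comparisons 0 of 3 were past 2-fold. For metastases of irradiated mice this stood beside 2.29% higher and 2.49% lower of all probes (median -0.25 against -0.02). For the 10 Gy arm it stood beside 10.2% and 11.0% (median 0.58 against 0.00). Over the scalings the medians ran from -0.00 to 1.42, from -0.53 to 0.26, from -0.18 to 0.92 and from -0.61 to 0.58. The counts on these 4 lists describe 2 arrays at a time and have no test. The lists also share members, so their counts are not separate observations. miR-155, miR-221 and miR-222 are on both the NF-kB and STAT3 list and the oncogenic list. miR-107 is on the oncogenic and p53 lists, and miR-215 on the p53 and SMAD lists. miR-145 and miR-199a-3p are also among the fibroblast and smooth muscle markers below.

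Markers of other cell types differed between the arrays far more than miR-21 did. The summed signal of 4 microRNAs of fibroblasts and smooth muscle, all detected on every array, was 1637 in the sham primary tumour, 16267 in the sham metastases, 3017 in the 10 Gy primary tumour and 11934 in the 10 Gy metastases. Of these, miR-214 gave 780.6, 1970, 1810 and 1442 in the same order. It was lower in the 10 Gy metastases than in the 10 Gy primary tumour, where miR-143, miR-145 and miR-199a-3p were higher in metastases. From sham to 10 Gy primary tumour miR-214, miR-143 and miR-145 rose, and miR-199a-3p went from 450.2 to 421.4. The 2 endothelial markers summed to 6024, 32134, 4273 and 22386 in this order and the 3 erythroid markers to 2702, 20734, 845.8 and 11979, with miR-126-5p and miR-144 detected only on the metastases sham array. The 4 muscle markers, detected on every array, summed to 9585, 366.0, 4099 and 12986, but they did not move together. miR-206 gave 9444, 144.8, 1478 and 2358, so it made up nearly all of the sum in the sham primary tumour, while miR-1 gave 45.1, 65.4, 1794 and 8469. Like miR-1, miR-133a (51.2 and 510.3) and miR-133b (45.2 and 316.3) were higher in the 10 Gy than in the sham primary tumour. The myeloid markers summed to 6792, 7544, 255.6 and 4099, with all 3 detected on the metastases sham array, 2 on the metastases 10 Gy array and only 1, miR-223, on each primary tumour array. miR-150 of lymphocytes gave 79.4, 3591, no detected signal and 864.2, and miR-122 of hepatocytes was detected only on the metastases arrays, at 53.8 and 717.

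Of 6 epithelial markers, 1 was detected in each primary tumour, miR-200c in the sham (54.3) and miR-429 in the 10 Gy tumour (51.9). None was detected in both. All 6 were detected on both metastases arrays, with summed signals of 6994 and 3833. Of the miR-200 family and miR-205, which mark epithelium, the primary tumours of this carcinoma line thus gave next to no signal on these arrays. The part of these markers in the miR-21 values was not tested.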

How the data were processed

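Total RNA of 4 tumour groups was measured on single-colour microarrays by a service provider, per the labels' protocols, with 1 array per group, grouped by sample title. Each chip held 3968 spots: 3500 of 700 microRNA probes, 180 empty spots, 20 of 5S ribosomal RNA and 268 calibration spots. Per the file headers, the deposited scanner tables give a mean intensity for every spot, which is linear and not background-subtracted, since empty spots lie far above 0. Digit commas in large values were removed. The authors' value table gives 1 intensity per probe with a background already taken off and no scaling between arrays visible, and was used as an alternative. Its column medians were 178.9 (sham) and 129.6 (10 Gy) for the primary tumour and 212.6 (sham) and 55.9 (10 Gy) for metastases. How its background was set is not given in the sources used here.

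Signals above background are the mean of a probe's spots minus the median of empty spots, and ranks and ratios use these. Levels use normexp with an offset of 50 (limma 3.58.1, R 4.3.3), log2, the mean of 5 spots and quantile normalization. A probe was tested in a comparison if detected on at least 1 of the 2 arrays and counted at a log2 difference of at least 1 (2-fold). A probe detected on 1 array was counted by its bound, against the higher of its own value and the lowest value among detected probes on the dim array. The additive limma fit, at an adjusted p of 0.05, was tested on simulated data. Alternatives were 6 other scalings (none, the 75th percentile, cyclic loess, the 5S probes, the reference microRNAs miR-16, miR-103 and miR-191, and the calibration spots), an offset of 16, no background correction, the median of the 10 nearest empty spots, the median of spots, the 99th percentile for detection and the authors' values. Calibration spots, single 5S probes and leaving out a spot were added after seeing the data.

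The microRNAs named were miR-21, miR-21*, the 10 other probes with the best mean rank, the neighbours in rank, the 5 closest profiles, the 5S probes, probes with the seed of miR-21 or a long shared run, members of the lists, and markers. miR-21, the lists and markers were chosen with earlier results of these data known. Names are those of the array. Of the 700 probe targets, 538 matched a mature microRNA in RefSeq.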

Additional observations from a re-analysis of the deposited data

Results flagged for a closer look

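The difference of miR-21 after 10 Gy was opposite in sign at the 2 sites: 0.48 in the primary tumour and -0.17 in metastases. The metastases response minus the primary response was thus -0.65 on the log2 scale. These are quantile-normalized levels, which are set by rank. miR-21 ranked 1 in the sham metastases, so its metastases difference could not lie above 0 under that normalization. Combining the spot-pair SDs of both differences as if they were independent gives a spread of 0.17. With 1 array per group this difference between sites was not tested. It lay at percentile 22.5 of 374 probes. Over 16 scaling and background settings it was below 0 in 14, from -1.15 with 5S-b4 as scale to 0.14 with 5S-b2, and the signs at the 2 sites were opposite in 10. The background and spot-median settings among them also used quantile normalization and have the same limit.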

How the results depend on the processing

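Values are log2 differences of miR-21 in the order irradiated against sham primary tumour, metastases of irradiated against sham mice, metastases against primary tumour in the sham arm and in the 10 Gy arm, with 0.48, -0.17, 0.72 and 0.07 under quantile normalization. They were -0.088, -0.59, 0.21 and -0.28 without normalization, 1.33, 0.21, -0.12 and -1.24 with the 75th percentile, 0.57, 0.084, 0.063 and -0.42 with cyclic loess, 0.059, -0.56, 0.10 and -0.52 with the 5S probes, 0.024, 0.087, -0.89 and -0.82 with the reference microRNAs, and -0.086, -0.58, 0.21 and -0.28 in the authors' value table. Among scalings chosen after seeing the data, 5S-b1 gave 0.066, -0.63, -0.90 and -1.60, 5S-b2 gave -0.36, -0.21, 0.20 and 0.34, 5S-b3 gave 0.58, -0.47, 0.33 and -0.72, 5S-b4 gave 0.26, -0.88, 0.58 and -0.56, 5S-b5 gave -0.25, -0.60, 0.31 and -0.039, and the calibration spots gave 0.51, -0.093, 0.081 and -0.53. The median of spots moved the first to 0.53 and the rank on the primary 10 Gy array from 3 to 2, and leaving out the second spot, also chosen after seeing the data, moved the third to 0.67. The other background settings and left-out spots kept each value within its SD over spots.

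Counts of probes at least 2-fold higher and lower in the first comparison were 7 and 89 without normalization, 82 and 25 with the 75th percentile and 28 and 58 with cyclic loess, against 50 and 44. In the second they were 7 and 71 without normalization and 41 and 10 with the 75th percentile, against 11 and 12. In the third 86 were higher without normalization against 56, and in the fourth 15 were lower without normalization and 77 with the 75th percentile, against 38. The site term of the additive limma fit, 0.39, turned to -0.036 without normalization, -0.68 with the 75th percentile, -0.18 with cyclic loess, -0.21 with the 5S probes, -0.86 with the reference microRNAs and -0.22 with the calibration spots, and the radiation term, 0.16, to -0.34 without normalization and -0.25 with the 5S probes. The count of probes this fit called, 0 for both terms, rose to 42 for site and 7 for radiation with the 75th percentile, 34 and 8 with the 5S probes and 33 and 3 with the calibration spots. Of the 5 closest profiles, 2 were shared without background correction and 3 with the nearest empty spots. In all, 95 of the recomputed values stayed within 1 SD over spots, within 1.5 times a count (or equal to a count of 0) or, for the limma fit, on the same side of 0, 67 moved further and 8 of the limma fit changed sign; the cause was not tested. No paired analysis was possible because each group has 1 array, all with replicate number 1, so a block by replicate number has nothing to pair; the additive fit uses the other factor of the design as its term. Signal over background did not limit miR-21 itself, at 86.0 to 247.4 times the empty spots, but it limits miR-21* and dim list members.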
